A study of Drosophila melanogaster with 2 samples.

Results

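The 9 glycolysis genes Hex-A, Pgi, Pfk, Tpi, Gapdh1, Gapdh2, Pgk, Eno and Ldh were examined for chromatin occupancy by CG12605, a zinc finger factor related to Snail and Scratch. They were taken by name, with earlier results of these data known. All 9 were found among the 13945 protein-coding genes annotated on the main chromosome arms. The data come from whole Drosophila melanogaster pupae aged 1 day, of a transgenic strain that expresses CG12605 fused to enhanced green fluorescent protein. Chromatin was sheared by sonication and precipitated with an antibody against green fluorescent protein. The 2 libraries are biological replicates of this single group, and no second condition exists, so nothing was compared between conditions. The labels describe an insertion directed at CG12605. Neither the fate of the untagged copy nor the cells that carry the protein are named there.

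Glycolysis splits glucose into pyruvate and yields ATP and NADH. Hexokinase and phosphofructokinase commit sugar to the pathway, glyceraldehyde-3-phosphate dehydrogenase carries out its oxidation step, phosphoglycerate kinase makes ATP, and lactate dehydrogenase regenerates NAD+ when pyruvate is reduced to lactate. In Drosophila, the estrogen-related receptor ERR is known to switch on many of these genes in the embryo, before the larva starts to grow.

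Sequences are shown for the strongest summits of Gapdh2, Eno, Ldh and Hex-A, the 4 highest among the members in the conservative list, and for the 5′ end of Pgk, where a reproducible peak is absent from the conservative list. They were read from the RefSeq Release 6 assembly, which has dm6 coordinates, and are given 5′ to 3′ on the strand of the gene. Capitals mark matches, on either strand, to GAGAG, the letters read by GAGA factor, to TATAAA, a core promoter sequence, and to AGGTCA, part of a nuclear receptor site. These are the motifs found in the stretches shown, out of 9 searched. The Gapdh2 stretch holds the 250 bases before its first start site, with the summit at base 89. Each of the other stretches holds the summit, at base 51, and the 50 bases on either side.
Gapdh2, chrX:15867895-15868144, plus strand: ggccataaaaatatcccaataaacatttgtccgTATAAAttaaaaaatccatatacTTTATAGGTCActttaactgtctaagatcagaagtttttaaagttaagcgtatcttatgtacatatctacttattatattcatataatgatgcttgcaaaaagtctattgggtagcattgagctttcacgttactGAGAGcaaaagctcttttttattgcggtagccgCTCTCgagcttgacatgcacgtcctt
Eno, chr2L:1727865-1727965, minus strand: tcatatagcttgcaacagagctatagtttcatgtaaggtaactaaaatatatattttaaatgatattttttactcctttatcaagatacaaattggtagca
Ldh, chr3L:6262837-6262937, minus strand: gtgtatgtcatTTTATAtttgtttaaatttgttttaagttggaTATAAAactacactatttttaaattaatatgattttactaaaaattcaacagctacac
Hex-A, chrX:9585421-9585521, plus strand: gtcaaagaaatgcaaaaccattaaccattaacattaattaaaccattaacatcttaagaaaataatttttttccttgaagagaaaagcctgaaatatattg
Pgk 5′ end, chr2L:2753114-2753214, minus strand: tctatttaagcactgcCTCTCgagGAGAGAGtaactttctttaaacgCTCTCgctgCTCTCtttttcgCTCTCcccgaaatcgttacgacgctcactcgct
The first 4 are rich in A and T, and the Pgk stretch holds GAGAG at 6 places.

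Of the 9 genes, 6 had a peak summit within 1000 bp of an annotated start site in the conservative list, namely Hex-A, Pgi, Gapdh2, Pgk, Eno and Ldh (66.7%). Pfk, Tpi and Gapdh1 had none. The share over all protein-coding genes was 23.1%, or 3223 of 13945 (95% exact binomial interval 22.4 to 23.8, counting error only). The conservative list holds 6776 peaks that the authors retained as reproducible between the replicates. The irreproducible discovery rate (IDR) describes how reproducible a peak's rank is over a pair of calls, and the authors' lists keep peaks at an IDR of at most 0.01, a −log10 IDR of 2.

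The same 6 genes were bound in the other lists. In the ranked list between replicates, read at a −log10 IDR of 2 or more, 6 of 9 were bound, against 23.7% of all genes. That list contains every conservative peak, so its count could not be lower than 6. In the list of replicate 1 it was 6 of 9 against 15.8%, and in that of replicate 2 it was 6 of 9 against 19.3%. A summit in both replicates' lists was found at 6 of 9 glycolysis genes, against 13.3% of all genes. With no limit on IDR, 8 of 9 had a ranked summit, all but Pfk, against 60.2% of all genes.

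The number of start sites bears on these shares, because a gene with more of them has more places to be counted. All 9 glycolysis genes have 2 or more annotated start sites. Among the 3699 protein-coding genes with 2 or more, 1543 were bound, so that the share beside 6 of 9 was 41.7%. This restriction was chosen after the data were seen, and the part that start site number plays in the count was not tested further.

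**Figure D1:**
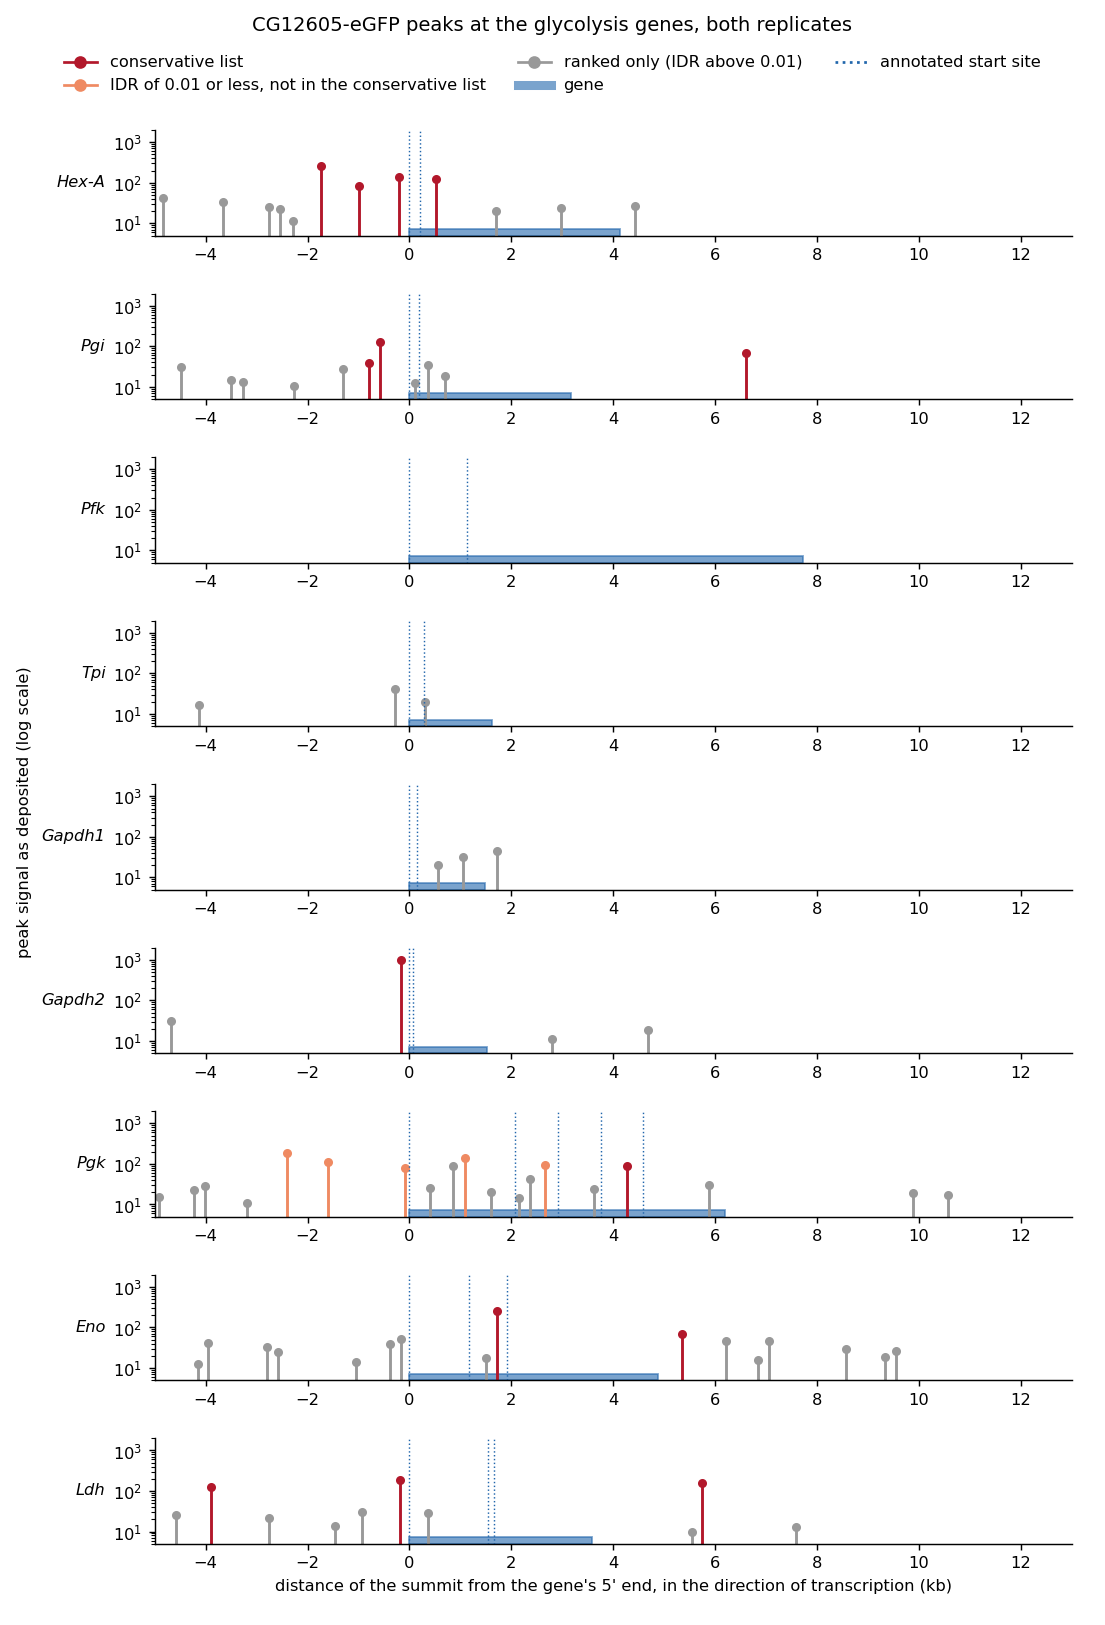
Peak summits around the 9 glycolysis genes, with distance from the 5′ end of the gene in kb along transcription on the x axis and the deposited signal on a log y axis, for the list that pairs both replicates. Dark red summits are in the conservative list, orange ones have an IDR of 0.01 or less but are not in it and occur at Pgk alone, and grey ones have a higher IDR; Gapdh2 reaches 1002, and Pfk has no summit.

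The height of the 6 bound promoters varied widely. Gapdh2 stood far above the other members, with a signal of 1002 in the conservative list, 4.01 times that of Eno, the next. Ranks below count from the strongest peak of a list, and a percentile is the percentage of the list's peaks that are weaker. The median of the 6 strongest signals was 163, and that over the 3223 bound genes was 98.1. The signal is the authors' own value, on a scale that the sources do not describe, so it was ranked within each list and not compared between lists.

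**Figure D2:**
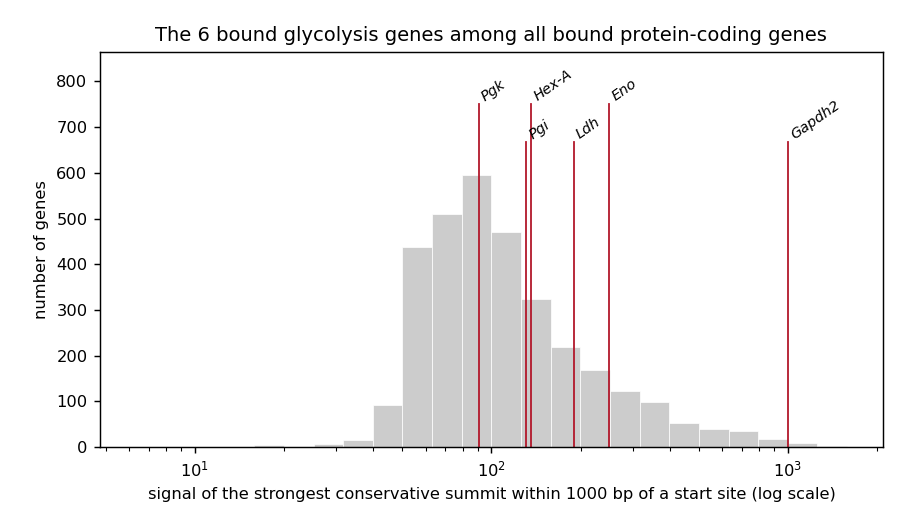
Signal of the strongest conservative summit within 1000 bp of a start site (x axis, log scale) against the number of genes (y axis), with all 3223 bound genes as grey bars and the 6 bound glycolysis genes as red lines. Gapdh2 at 1002 lies at the right end of the distribution, Pgk at 90.8 lies near its middle, and the other 4 lie between 131 and 250.

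Hex-A encodes a hexokinase, which phosphorylates glucose and so traps it in the cell. The gene (FBgn0001186) lies on X from 9585675 to 9589813 on the plus strand, with start sites at 9585675 and 9585890. It had 3 conservative summits within 1000 bp of a start site, a number reached by 1 of 9 glycolysis genes and by 1.83% of all genes (255 of 13945). In the ranked list at a −log10 IDR of 2 or more, Pgk reached it too. Among the related genes listed further below, PyK, Treh and PCB had 4 conservative summits, and Tret1-1, UGP and Pfrx had 3. The strongest at Hex-A lay 204 bp upstream of the first start site, at 9585471, with a signal of 136 (rank 1526, percentile 77.5). The next, with a signal of 126, lay 298 bp downstream of the second start site, in the 5′ UTR. The third, with 84.0, lay 986 bp upstream, just inside the distance limit, and 512 bp from the start of the noncoding gene lncRNA:CR45541.

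The replicates differed in how high they ranked the strongest of these Hex-A peaks. The summit 204 bp upstream had a signal of 54.5 in replicate 1 (rank 1957, percentile 51.3) and 85.1 in replicate 2 (rank 1231, percentile 77.2). The replicates' own summits lay 49 and 46 bp from the conservative one, which falls at the edge of a peak 90 bp wide. The summit in the 5′ UTR had 28.5 in replicate 1 (rank 3880, percentile 3.5) and 78.8 in replicate 2 (rank 1429, percentile 73.5). The one 986 bp upstream had 48.0 in replicate 2, and in replicate 1 it was ranked at 36.8 with a −log10 IDR of 1.23, outside that replicate's list. The highest peak near the gene lay beyond the limit. It stood 1739 bp upstream, at 9583936 outside any gene, with a signal of 253 (rank 502), and held rank 481 in replicate 1 and rank 480 in replicate 2.

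Pgi encodes the isomerase that turns glucose-6-phosphate into fructose-6-phosphate. The gene (FBgn0003074) lies on 2R from 8910900 to 8914069 on the minus strand. Its strongest conservative summit, at 8914657, lay 588 bp upstream with a signal of 131 (rank 1659, percentile 75.5). Replicate 1 gave it 46.7 (rank 2589, percentile 35.6) and replicate 2 gave it 72.4 (rank 1677, percentile 68.9). A weaker summit with a signal of 38.7 (percentile 5.9) lay 787 bp upstream, in a peak that overlaps the stronger one. Neither replicate's lists held a separate summit for it. Both conservative summits sit in the 5′ UTR of lin, 133 and 332 bp from the start of lin. That gene is transcribed away from Pgi, so the summits cannot be given to Pgi alone. Within Pgi itself, 178 bp downstream of its inner start site, a summit of 34.3 had a −log10 IDR of 1.35 and did not reach the threshold.

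Pfk encodes phosphofructokinase, which makes fructose-1,6-bisphosphate in the committed step of the pathway. The gene (FBgn0003071) runs on 2R from 10109740 to 10117457 on the plus strand. Neither the conservative list nor the ranked list between replicates held a summit within 1000 bp of its start sites. The ranked list of replicate 2 alone held summits of 14.5 at 978 bp upstream and 16.7 at 459 bp downstream, at a −log10 IDR of 0.152. The nearest conservative summit was 8027 bp away, at 10101713 in an intron of 14-3-3zeta.

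Tpi encodes triosephosphate isomerase, which interconverts the triose phosphates made when the sugar is split. On 3R, from 30132981 to 30134599 on the minus strand (FBgn0086355), its only summits near a start site were in the ranked list. They had signals of 40.2 at 281 bp upstream, in the 3′ UTR of AdoR, and 19.8 at 16 bp downstream, with −log10 IDR values of 1.04 and 0.358. Both fell short of the threshold, and the nearest conservative summit was 17123 bp away.

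The gene pair for glyceraldehyde-3-phosphate dehydrogenase was split. Gapdh1 (FBgn0001091), on 2R from 7791901 to 7793380 on the minus strand, had no conservative summit within 1000 bp of a start site. Its ranked summits of 31.9 at 897 bp and 20.2 at 404 bp downstream lay in the gene at −log10 IDR values of 0.741 and 0.161. A summit of 41.8 that lay 1606 bp downstream, beyond the 3′ end, was in the list of replicate 2 only, and replicate 1 ranked it at 7.32.

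Gapdh2 (FBgn0001092), on X from 15868145 to 15869661 on the plus strand, had 1 conservative summit, 162 bp upstream of its first start site. It was the 10th strongest of the 6776 conservative peaks, at percentile 99.9, and the 11th strongest of the 3223 bound genes. Its signal was 506 in replicate 1 (rank 6, percentile 99.9) and 497 in replicate 2 (rank 14, percentile 99.7). The replicates' summits lay 0 and 12 bp from the conservative one, and no other start site lay within 1000 bp of it.

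Copies as alike as Gapdh1 and Gapdh2 can share short reads. Each run of 50 bases that lies within 1000 bp of a start site of the 9 genes occurred once on the main chromosome arms. Other parts of the assembly were not searched. The sources used here name neither the read length nor the aligner.

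Pgk encodes phosphoglycerate kinase, the first enzyme of the pathway to make ATP. The gene (FBgn0250906) lies on 2L from 2746880 to 2753068 on the minus strand and has 5 start sites. Its only conservative summit near one, at 2748805, lay 318 bp upstream of the innermost start site, at 2748487, and in an intron. It was the weakest of the 6, with a signal of 90.8 (rank 3067, percentile 54.7). The values were 33.1 in replicate 1 (rank 3758, percentile 6.6) and 48.3 in replicate 2 (rank 3328, percentile 38.3), in the lower part of both lists.

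Around the 5′ end of Pgk, 5 further summits reached a −log10 IDR of at least 2 in the ranked list but were missing from the conservative list. They had signals of 95.8, 137, 79.0, 113 and 184 along 5064 bp, with −log10 IDR values of 3.75, 3.85, 3.30, 4.04 and 5.0. The second, at 2751973 in an intron of Pgk, was ranked at 93.4 in replicate 1 and 47.6 in replicate 2. The third, at 2753164, is the one whose sequence is printed above. It lay 96 bp upstream of the 5′ start site and 69 bp from the start of Bacc, which is read from the opposite strand and overlaps this end of Pgk. The summits of 113 and 184 lay in introns of Bacc, 1608 and 2409 bp upstream of Pgk, beyond the distance limit. With the peaks inside the limit counted, the strongest summit of Pgk was the one of 137, at percentile 77.6. It lay 984 bp from a start site of Pgk but 472 bp from one of Bacc. Neither it nor the summit of 79.0 can therefore be given to Pgk alone.

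Across the genome 181 of 6957 such ranked peaks were missing from the conservative list, and 154 of the 181 lay within 5000 bp of another. None lay within 5000 bp of the other 8 glycolysis genes. Per the deposited text, another file went into making the thresholded lists. It was not analysed here, and its part in these absences was not tested.

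Eno encodes enolase, which makes phosphoenolpyruvate. The gene (FBgn0000579) lies on 2L from 1724768 to 1729636 on the minus strand, with start sites at 1727717, 1728463 and 1729636. Its conservative summit, at 1727915, was the second strongest of the 9 genes, with a signal of 250 (rank 518, percentile 92.4). It lay in an intron, 198 bp upstream of the innermost start site and 1721 bp inside the gene, with a start site of Rrp40 817 bp away. Replicate 1 gave 128 (rank 393, percentile 90.2) and replicate 2 gave 110 (rank 769, percentile 85.7). At the 5′ end of the gene, a summit of 51.4 lay 171 bp upstream with a −log10 IDR of 1.97, just outside the threshold.

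Ldh encodes lactate dehydrogenase, which reduces pyruvate to lactate. The gene (FBgn0001258) lies on 3L from 6259105 to 6262694 on the minus strand. Its conservative summit, at 6262887, lay 193 bp upstream of the 5′ start site, outside genes, with a signal of 190 (rank 843, percentile 87.6). It had 105 in replicate 1 (rank 582, percentile 85.5) and 81.2 in replicate 2 (rank 1340, percentile 75.2). The start of lncRNA:CR44522 lay 512 bp from it. Both flanks of the gene held further conservative summits outside genes. One, with a signal of 126, lay 3892 bp upstream and was in both replicates' lists at 66.8 and 54.9. The other, with 161, lay beyond the 3′ end and held rank 631 in replicate 1 and rank 2861 in replicate 2.

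**Figure D3:**
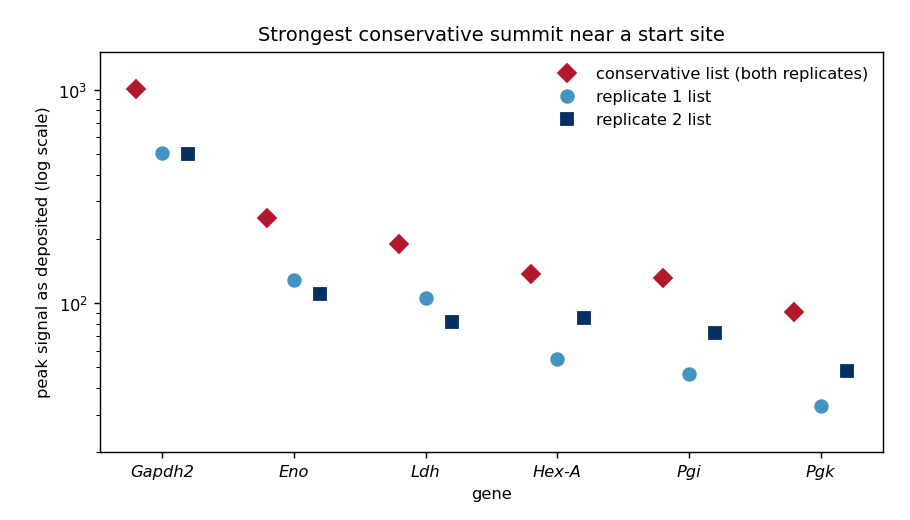
Deposited signal (y axis, log scale) of the strongest conservative summit of each bound glycolysis gene (x axis) in the conservative list (diamonds) and in the lists of replicate 1 (circles) and replicate 2 (squares). Whether the lists share a scale is not known, so the order is read within a symbol: Gapdh2 is highest and Pgk lowest in all 3. Pgk is shown at its conservative summit and not at its ranked summit of 137.

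At the strongest conservative summits, the order of the 6 genes was nearly shared between the replicates. Conservative list and replicate 1 both ran Gapdh2, Eno, Ldh, Hex-A, Pgi, Pgk. In replicate 2 only Hex-A and Ldh changed places, at 85.1 and 81.2. The order of Hex-A and Ldh is therefore not settled by the 2 replicates, and the percentiles given above for each replicate show the spread at each gene. The place of Pgk depends on the list. Its summit of 137.0 was absent from the conservative list and lay nearer to a start site of Bacc. In the ranked list it exceeded Hex-A at 136.3 and Pgi at 130.9. That summit was ranked at 93.4 in replicate 1, above Hex-A at 54.5, and at 47.6 in replicate 2, below Hex-A at 85.1.

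All 6 strongest summits lay upstream of the nearest start site of their own gene, and among all bound genes 2289 of 3223 did (71.0%). The Pgi summit lay nearer to the start of lin, 133 bp away, in the 5′ UTR of lin. The distances of the 6 ran from 162 bp at Gapdh2 to 588 bp at Pgi. With upstream positions written as negative, the quartiles were −290 and −194 bp for the 6 glycolysis genes and −288 and 26 bp for all bound genes.

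The DNA at most of these summits was low in G and C. In the window of the strongest summit and 50 bp on either side, GC content was 23.8% at Gapdh2, 25.7% at Eno, 19.8% at Ldh, 24.8% at Hex-A and 26.7% at the conservative summit of Pgk. Pgi stood apart at 36.6%. The median was 25.2% over the 6 genes and 39.6% over all 3223 bound genes. At or below 26.7%, a limit chosen after the values were seen, lay 5 of 6 glycolysis genes (83.3%) and 636 of 3223 bound genes (19.7%). The limit is the value of Pgk itself, so its choice fixed the count of 5. Among the 1765 bound genes with a signal at least that of Pgk, 449 lay at or below the limit (25.4%). The value of Pgk depends on the list, because its strongest summit in the ranked list, the one of 137, had 38.6% GC. With that list at a −log10 IDR of 2 or more, the count was 4 of 6 glycolysis genes (66.7%) and 641 of 3303 bound genes (19.4%).

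The weaker member summits were less extreme. The other Hex-A windows had 35.6% and 46.5% GC, and the other Pgi window had 53.5%. The other Pgk summits near a start site, absent from the conservative list, had 41.6% and 48.5%. Over all 9 conservative windows of the glycolysis genes the median was 26.7%, and over all 6776 windows of the list it was 36.6%.

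**Figure D4:**
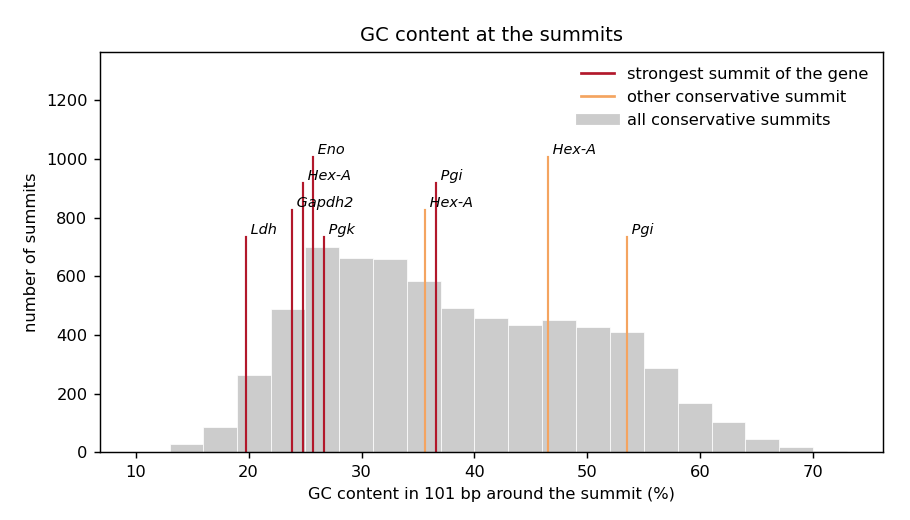
GC content in the 50 bp on either side of conservative summits (x axis, %) against the number of summits (y axis), with all 6776 summits as grey bars, the strongest summit of each bound glycolysis gene in red and their other summits in orange. The red lines of Ldh, Gapdh2, Hex-A, Eno and Pgk lie between 19.8% and 26.7%, and Pgi lies at 36.6%.

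Of the 9 motifs searched, 4 were found at the glycolysis summits, in 1 or 2 of the 9 conservative windows each. On both strands, TATAAA, the core promoter sequence, occurred in those of Gapdh2 and Ldh, against 16.8% of all 6776 windows. GAGAG, read by GAGA factor, occurred in the 2 weaker Hex-A windows and in 19.6% of all windows. AGGTCA, the nuclear receptor sequence, occurred in the Gapdh2 window and in 1.48% of all. CACCTG, an E-box read by Snail proteins, occurred once, in the weaker Pgi window, and in 3.28% of all. It is part of the reverse of the longer CAACAGGTG, so the searches overlap.

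The remaining motifs had no match in the 9 windows. They were CAACAGGTG (0.871% of all windows), CACGTG (1.03%), TCAAGGTCA (0.0443%), TATCGATA (0.546%) and GGTCACACT (0.428%). In the Gapdh2 stretch printed above, TATAAA begins at position −217 relative to the start site. It is also read on the reverse strand from −194, where it shares 1 base with the AGGTCA that begins at −189. GAGAG begins at −59 and −26. Over the 250 bases before the 5′ end of each of the 13945 genes, 43.0% hold TATAAA, 25.7% GAGAG and 5.02% AGGTCA. A match is a description of the letters and says nothing of which factor binds.

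A list of 39 related genes of carbohydrate metabolism was drawn up with earlier results of these data known. Of these, 24 (61.5%) had a conservative summit within 1000 bp of a start site, against 23.1% of all genes. Limited to genes with 2 or more start sites it was 18 of 22 (81.8%), against 41.7%. The count was 20 of 39 in the list of replicate 1, against 15.8% of all genes, and 23 of 39 in that of replicate 2, against 19.3%. Together these counts include 5 genes not bound in the conservative list, and 16 of the 24 were bound in both replicates' lists. The median signal of the 24 was 94.7, near the 98.1 of all bound genes. Of their 24 strongest summits 18 lay upstream, against 2289 of 3223 (71.0%) among all bound genes. At 11 of the 24, another gene's start site lay within 1000 bp of the summit. Neither this count nor the 16 has a share over all bound genes beside it.

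The other glycolytic enzymes were bound in 2 of 9 cases (22.2%), a share like the 23.1% of all genes. With 2 or more start sites it was 2 of 3 (66.7%), against 41.7%. PyK, the pyruvate kinase gene, had a signal of 111 at −159 bp from a start site. Pglym78, a phosphoglycerate mutase gene, had 87.8 at −14 bp, a summit shared with CG11882, and was in the list of replicate 2 alone. The aldolase genes Ald1 and Ald2, the hexokinase genes Hex-C, Hex-t1 and Hex-t2, and Pglym87 and CG9961 were not bound. Of these, Ald1 had a summit in the list of replicate 1 alone.

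Genes of sugar supply and storage were bound in 8 of 10 cases (80.0%), against 23.1% of all genes, and with 2 or more start sites in 6 of 6 against 41.7%. The count was 6 of 10 in replicate 1, against 15.8% of all genes, and 7 of 10 in replicate 2, against 19.3%. Treh, which splits the blood sugar trehalose, had a signal of 222 at −897 bp, nearer to the limit than to the start site and shared with CG10527. The glycogen synthase gene Glys had 182 and the glycogen phosphorylase gene Glyp had 156. UGP, which makes UDP-glucose, had 118, and the phosphoglucomutase gene Pgm1 had 102. Both of these summits are shared with a neighbour, Svip at UGP and SsRbeta at Pgm1. Pfrx, Tret1-1 and Glut1 had 91.8, 77.2 and 51.5. Glut1 was in neither replicate's list, and Tret1-1 was in that of replicate 2 alone. The Glyp summit overlapped no peak in the list of replicate 2, and the Pfrx summit none in that of replicate 1. Both genes had another summit within 1000 bp of a start site there. No summit was found at Tret1-2 or Tps1.

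Branches and fates of glycolysis were bound in 8 of 14 cases (57.1%), against 23.1% of all genes, and with 2 or more start sites in 6 of 9 against 41.7%. CG8036, a transketolase gene of the pentose phosphate pathway, had the highest signal of the related genes at 506 (percentile 98.3), with 235 in replicate 1 and 253 in replicate 2. Its summit lay at −266 bp from a start site and within 1000 bp of genes for tyrosine tRNA. Gpdh1, which makes glycerol-3-phosphate, had 105, and the malic enzyme gene Men had 98.0. Pdk, PCB and Pgd had 91.4, 88.7 and 80.6, and fbp and Zw had 61.7 and 61.3. Zw was in neither replicate's list, and PCB was in that of replicate 1 alone. The Gpdh1 summit overlapped no peak in the list of replicate 2, though the gene had another summit within 1000 bp of a start site there. Of the 6 without a summit, Mpc1 had one in replicate 1 alone, and Taldo, Pepck2 and Pdhb had one in replicate 2 alone.

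All 6 listed regulators of sugar metabolism were bound in the conservative list, against 23.1% of all genes, and 4 of 4 with 2 or more start sites, against 41.7%. In replicate 1 it was 4 of 6, against 15.8% of all genes, and in replicate 2 it was 5 of 6, against 19.3%. The hypoxia factor gene sima had a signal of 135, Myc had 99.9 and sug had 97.5. ERR, the receptor named above, had 84.3, at a summit in the 5′ UTR of its neighbour Atg18a. The sugar sensor genes bigmax and Mondo had 76.3 and 52.7, with summits shared with Hmu and crc. The Mondo summit overlapped no peak in either replicate's list, though replicate 2 had another summit within 1000 bp of a start site. ERR was in the list of replicate 2 alone and bigmax in that of replicate 1 alone.

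**Figure D5:**
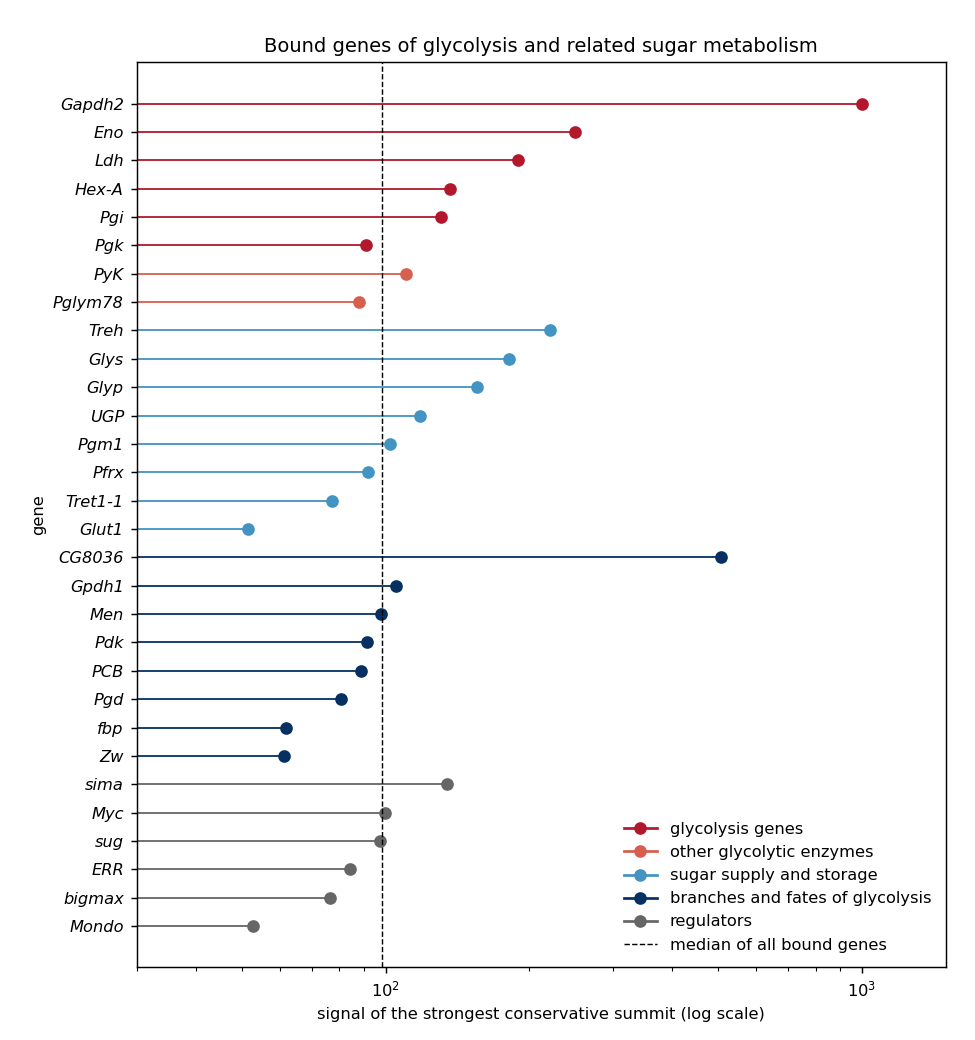
Signal of the strongest conservative summit (x axis, log scale) of the 6 bound glycolysis genes and the 24 bound related genes (y axis, 1 gene a line, coloured by group), with the median of all bound genes, 98.1, as a dashed line. Gapdh2 at 1002 and CG8036 at 506 exceed the rest, and Mondo at 52.7 and Glut1 at 51.5 are lowest.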

How the data were processed

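Peak lists of 2 biological replicates were used, on dm6. The authors aligned the reads, called peaks relative to a control and ranked these by IDR, per the deposited text. Which aligner and caller they used is not stated there. Each peak's signal is the authors' deposited value, and the −log10 IDR of a ranked peak was deposited by the authors with it. Summits are the peak start plus the deposited offset, counted from 1. The ranked list that contains all conservative peaks, at identical positions and signals, was taken as their source. Library depth is unknown, since no read counts were used here, and no p-values are given.

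Start sites are those of Ensembl release 115 (dm6 coordinates), and a gene is called bound with a summit within 1000 bp of one. The assignment of summits was tested on simulated data. The members, the related genes and the motifs were chosen with earlier results of these data known. All 9 members are named, and related genes are given values when bound in the conservative list. GlyP, GlyS and Pcb are Glyp, Glys and PCB in the annotation. Alternatives covered the list, each replicate, distance, start sites and window size. Python 3.11.15, pandas 2.3.3, numpy 2.4.6, scipy 1.17.1 and matplotlib 3.10.9 were used.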

Additional observations from a re-analysis of the deposited data

How the results depend on the processing

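The count of bound glycolysis genes was 5 at 500 bp, where Pgi was lost. It was 4 with the 5′ end of the gene as the only start site, where Pgk and Eno were lost. Under the other alternatives run, each replicate alone included, it was 6. The count could not fall below 6 at 2000 bp or when any base of the peak counted. The same holds for the ranked list at a −log10 IDR of 2 or more. The related genes numbered 14 at a −log10 IDR of 3 or more, against 24, and 20 to 23 with either replicate left out. The share of all genes bound was 19.3% at 500 bp, 28.7% at 2000 bp, 15.4% at a −log10 IDR of 3 or more, 13.9% for conservative peaks at or above the median signal, 21.0% with the 5′ end only, 24.1% when any base of the peak counted, 41.7% for genes with 2 or more start sites, and 15.8% to 19.3% with 1 replicate left out. The restriction to genes with 2 or more start sites, the count over both replicates' lists and the GC count in the ranked list were chosen after seeing the data. With replicate 2 left out, the percentile of Pgk was 6.6, of Pgi 35.6 and of Hex-A 51.3; the cause was not tested. In the wider windows tried, the mean GC content of the glycolysis summits was 37.5%, against 32.6% with 50 bp on either side. CACCTG was found in 2 of the wider windows rather than 1. Over all 6776 conservative windows with 50 bp on either side, the mean was 38.3%. No such mean is given for the wider windows, so the 37.5% has no background beside it. No paired analysis was possible because there is 1 group, so no groups share replicate numbers. Unknown depth limits what the absence of a peak at Pfk, Tpi and Gapdh1 can show.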
